A study of Mus musculus with 4 samples.

Results

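S100 proteins are small calcium sensors of vertebrates. The levels of 8 genes that encode them (S100a1, S100a4, S100a6, S100a8, S100a9, S100a10, S100a11 and S100a13) are described here in stimulated mouse macrophages. The genes were taken by symbol, 8 of the 55536 genes measured, and they were selected on their TPM values and spread in these same libraries, so their levels and their spread are given as a description and support nothing by themselves. Polyadenylated RNA was sequenced from whole-cell extracts of primary macrophages grown from the bone marrow of C57BL/6J mice. There were 4 libraries in 1 group, biological replicates 1 to 4 with 1 technical replicate each, and every one came from cells treated for 60 minutes at a dose of 100 ng/mL. The labels name the agent both as Lipid A, the Tlr4-binding moiety of lipopolysaccharide, and as lipoprotein A, so its identity is not settled here. No genetic change is named, sex and age were not collected, and all libraries carry 1 donor label. Whether the replicates were different mice or dishes is not stated, so the spread between them may be technical. Untreated cells were not analysed here, so nothing below measures a response to the stimulus.

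Each S100 protein carries a pair of EF-hands, loops that hold calcium, and most members work as dimers. On binding calcium the dimer opens a surface that grips a partner protein, often an annexin, a myosin or an enzyme. Some members are also released from cells. S100a8 and S100a9 together form calprotectin, an antimicrobial complex that withholds zinc and manganese from microbes and is very abundant in neutrophils and in monocytes. In macrophages the family is known for calprotectin as an inflammatory mediator, for annexin-bound S100a10 and S100a11 at membranes, and for S100a4 and S100a6 in cell movement and stress.

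Total expected counts per library, the estimated numbers of reads per gene, ranged from 26917324 in replicate 1 to 39438414 in replicate 4. Ribosomal RNA genes held 12.4% of the counts in replicate 1 and 3.43% to 7.28% in the other libraries. Of the 10 macrophage markers examined, all 10 were at 1 TPM (a relative transcript level, scaled for length and depth) or more in every library. Their highest members were the lysozyme Lyz2 at a mean of 19685 TPM, the lectin Lgals3 at 4316 TPM, the lysosomal protein Cd68 at 3029 TPM, the growth factor receptor Csf1r at 789 TPM and the surface protein Adgre1 at 564 TPM. No gene of the B cell, T and NK cell, mast cell and basophil, erythroid, stromal and epithelial lists reached 1 TPM in any library, the highest value being 0.90 TPM for the basophil protease Mcpt8 in replicate 3.

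All 8 S100 genes were expressed in every library, with TPM values from 22.0 to 674. By mean TPM, the order was S100a1 at 472 ± 222 TPM (SD, n = 4), S100a10 at 364 ± 102 TPM, S100a11 at 319 ± 52.0 TPM, S100a4 at 177 ± 68.5 TPM, S100a9 at 165 ± 196 TPM, S100a6 at 102 ± 68.3 TPM, S100a8 at 78.5 ± 71.9 TPM and S100a13 at 53.5 ± 8.21 TPM. Among 22028 protein-coding genes these means took ranks from 266 for S100a1 to 2131 for S100a13, while 43.8% of protein-coding genes reached 1 TPM in every library. Of the 7 pairs of neighbours in this order, only S100a11 above S100a4 held in all 4 libraries with a mean log2 TPM ratio (0.92) larger than its SD over the libraries (0.56). The other 6 neighbouring pairs kept their order in 1 to 3 of the 4 libraries, so their order by mean does not stand beyond the spread. The summed level of the 8 genes was steadier than most of its parts: 1660, 1476, 2115 and 1675 TPM in replicates 1 to 4, a 1.43-fold range. Its composition differed more. S100a1 made up 10.1% of that sum in replicate 1 and 21.7% to 40.2% in the others, and S100a9 made up 21.6% in replicate 3 and 2.5% to 6.06% in the others.

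**Figure D1:**
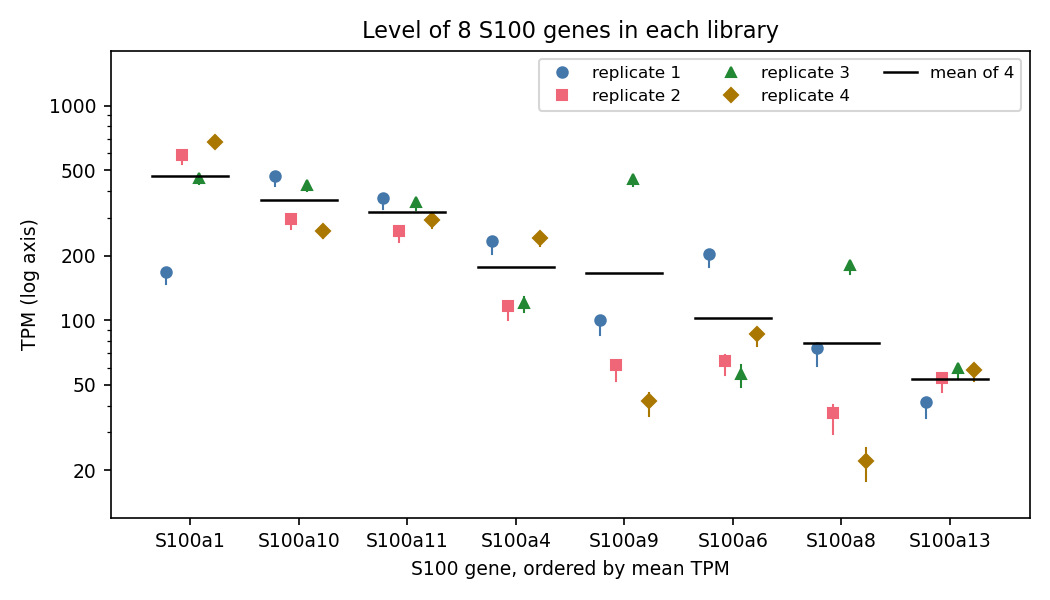
TPM (log axis) of the 8 S100 genes in each of the 4 libraries. Symbols are the libraries, black bars the mean of 4, and thin vertical lines the deposited credibility interval of each value, which is centred on a posterior mean that lies below the plotted estimate. The library values of S100a13 lie close to each other, as do those of S100a11, at a higher level. S100a9 and S100a8 are highest in replicate 3 and S100a1 is lowest in replicate 1.

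Differences between libraries were set against counting noise with a chi-square test per gene on scaled counts, adjusted by Benjamini-Hochberg over all 12626 genes whose mean count was 10 or more. A gene was called variable when its adjusted p was below 0.05 and its highest scaled count (CPM) was at least 2 times its lowest. By this rule 5 of the 8 genes were variable: S100a9 with an 11.0-fold range, S100a8 with 8.39, S100a1 with 4.16, S100a6 with 3.58 and S100a4 with 2.04. Of all genes tested, 33% were called. The range was 1.75-fold for S100a10, 1.5-fold for S100a13 and 1.41-fold for S100a11, which were not called. All 8 genes exceeded counting noise alone, as 88.6% of all genes did, and the highest adjusted p of the chi-square test among them was 7.2e-09, for S100a13. The median range was 2.81-fold for the 8 genes and 1.68-fold for all genes tested. Since the 8 were picked with their spread in view, nothing follows from these counts about the family. The 5 variable genes did not share a library of highest expression: S100a8 and S100a9 were highest in replicate 3, S100a6 in replicate 1, and S100a1 and S100a4 in replicate 4.

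The calprotectin genes lie in the same chromosome 3 cluster. S100a8 (ENSMUSG00000056054.9) occupies chr3:90668978-90670035 on the plus strand and S100a9 (ENSMUSG00000056071.12) occupies chr3:90692632-90695721 on the minus strand (mm10, GENCODE M21), 22596 bases apart and pointing at each other. As the members with the widest spread, they are shown with the 250 bases before their RefSeq starts (GRCm38.p6), on chr3:90668821-90669070 (plus strand) and chr3:90695722-90695971 (minus strand), each written 5′ to 3′ along its gene. Capitals mark TATAAA and matches to TTNNGNAA on either strand, a loose form of the C/EBP consensus; no marked match overlaps another.
S100a8: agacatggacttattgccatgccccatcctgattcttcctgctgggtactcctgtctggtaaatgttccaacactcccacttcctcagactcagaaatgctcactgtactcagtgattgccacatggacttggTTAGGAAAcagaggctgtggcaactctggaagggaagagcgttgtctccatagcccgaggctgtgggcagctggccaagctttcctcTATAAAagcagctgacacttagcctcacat
S100a9: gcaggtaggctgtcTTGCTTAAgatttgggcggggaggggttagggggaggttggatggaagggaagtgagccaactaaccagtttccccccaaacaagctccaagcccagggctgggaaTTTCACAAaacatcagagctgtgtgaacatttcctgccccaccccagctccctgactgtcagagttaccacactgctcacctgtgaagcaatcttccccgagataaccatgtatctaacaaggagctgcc

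The S100a8 window held TATAAA beginning 30 bases before the start, the usual place of a TATA box. TATAAA on the gene's own strand lay within 50 bases before the start in 2.63% of 32851 RefSeq promoter windows, and in 12.4% anywhere in the 250 bases on either strand. In S100a9 a TATAAA begins at base 1 of the annotated start itself, just past the printed stretch. TTNNGNAA was found once in S100a8, 117 bases before the start, and at 2 places in S100a9, 130 and 236 bases before it. That motif occurred in 36.8% of all windows, so it is a common match. GAGGAA, the core recognised by ETS factors such as PU.1, lay on the opposite strand of S100a8 at 36 and 170 bases before the start and was in 23.3% of windows. The RefSeq start of S100a8 lies 93 bases downstream of the GENCODE start, so the printed stretch overlaps the GENCODE model.

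S100a9 measured 101, 61.6, 457 and 41.9 TPM in replicates 1 to 4. Replicate 3 stood above the other libraries by a wide gap, and the lowest value was in replicate 4. S100a8 measured 74.0, 36.8, 181 and 22.0 TPM, with the same order of libraries. The expected counts behind these values were 460, 313, 2787 and 265 for S100a9 and 304, 168, 990 and 124 for S100a8. The deposited credibility intervals of TPM did not overlap for any of the 6 pairs of libraries in either gene. This was not particular to the pair: the number was also 6 for S100a1. It was 5 for S100a6, S100a10 and S100a11, 4 for S100a4 and 3 for S100a13. The share over all genes is not given here, so these numbers are only a description. Without replicate 3 the range narrowed from 11.0-fold to 2.39-fold for S100a9 and from 8.39-fold to 3.38-fold for S100a8, and both genes were still called. The means over the other 3 libraries were 68.1 TPM for S100a9 and 44.2 TPM for S100a8, beside 165 and 78.5 TPM over all 4. S100a9 exceeded S100a8 in every library, by 1.36, 1.67, 2.52 and 1.91 times, a mean log2 TPM ratio of 0.86 ± 0.37 (SD, n = 4). This ratio moved far less between libraries than either level, and it was highest in replicate 3, where both genes were highest.

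Markers of neutrophils and their precursors moved with this pair. The 14 genes of that list summed to 60.6, 35.9, 137 and 20.0 TPM in replicates 1 to 4, the same order of libraries as S100a8 and S100a9. By TPM 13 of the 14 were highest in replicate 3, against 17.7% of all genes tested. That share covers genes with a mean count of 10 or more, which only 7 of the 14 reached, so the sets are unlike. The granule protein Ngp measured 17.6, 6.44, 66.3 and 3.67 TPM, and Ltf, the iron-binding lactoferrin, measured 3.46, 2.07, 19.4 and 1.15 TPM. Lcn2, a siderophore-binding protein that macrophages also make on stimulation, measured 9.64, 7.23, 23.8 and 4.28 TPM. The exception was the collagenase Mmp8, at 25.1, 17.4, 17.8 and 9.75 TPM and highest in replicate 1. Prtn3, a granule protease, ran from 0.40 to 1.43 TPM, 6 of the 14 genes were below 1 TPM in every library, and the defining neutrophil marker Ly6g was at 0 in 3 libraries and 0.12 TPM in replicate 3. All 7 of the 14 that had enough counts were called variable, where 33% of all genes tested were. Within a library, S100a9 stood at 5.71, 9.57, 6.89 and 11.4 times the level of Ngp. It stood at 29.1, 29.8, 23.5 and 36.5 times that of Ltf. These ratios ranged 2.00-fold and 1.55-fold, while S100a9 itself ranged 11.0-fold by CPM. S100a8 stood at 4.19, 5.72, 2.73 and 5.98 times Ngp and at 21.4, 17.8, 9.33 and 19.1 times Ltf. Those ratios ranged 2.19-fold and 2.29-fold and were lowest in replicate 3, where S100a8 itself was highest. Ltf and Ngp are also the genes closest to S100a9 across these same libraries, so a narrow S100a9 ratio is built in and supports nothing.

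The 9 monocyte markers, some shared with macrophages and neutrophils, summed to 49.5, 103, 102 and 74.3 TPM, an order of libraries unlike that of S100a8 and S100a9. By TPM 5 of the 9 were highest in replicate 3, against 17.7% of all genes tested. Among these were the chemokine receptor Ccr2, at 7.30, 5.28, 10.8 and 5.16 TPM, the surface antigen Ly6c2, at 8.52, 6.97, 16.1 and 8.61 TPM, and the lectin Chil3, at 29.8 TPM in replicate 3 and 10.3 to 19.2 TPM in the others. Ccr2 had the same order of libraries as S100a8 and S100a9. The coagulation factor chain F13a1 had the highest mean of the list (30.1 TPM) and so weighed most on average in its sums. It was instead highest in replicate 2 (53.2 TPM, and 9.44 to 33.5 TPM in the others). Plac8 was at 4.09 TPM in replicate 1 and 12.7 to 13.1 TPM in the others. Macrophage markers did not follow the pair: Adgre1 was lowest in replicate 3 (491 TPM, and 548 to 637 TPM in the others), and Cd68 ranged from 2588 to 3456 TPM, highest in replicate 3. Some lists of other cells, all at low level, were also highest in replicate 3. The mast cell and basophil list summed to 1.87 TPM there and to 0.12 to 0.44 TPM in the others. The B cell list summed to 0.47 and 0.06 to 0.13 TPM, and the T and NK cell list to 0.35 and 0.03 to 0.16 TPM. The epithelial list was at 0.13 TPM there and 0.01 to 0.11 TPM in the others. The erythroid list was instead highest in replicate 4 (0.06 TPM) and the stromal list in replicate 1 (0.48 TPM). In bulk RNA a different number of cells of a type and a different amount of RNA per cell cannot be told apart, and the part of neutrophils, monocytes or other blood cells in the S100a8 and S100a9 values was not tested.

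**Figure D2:**
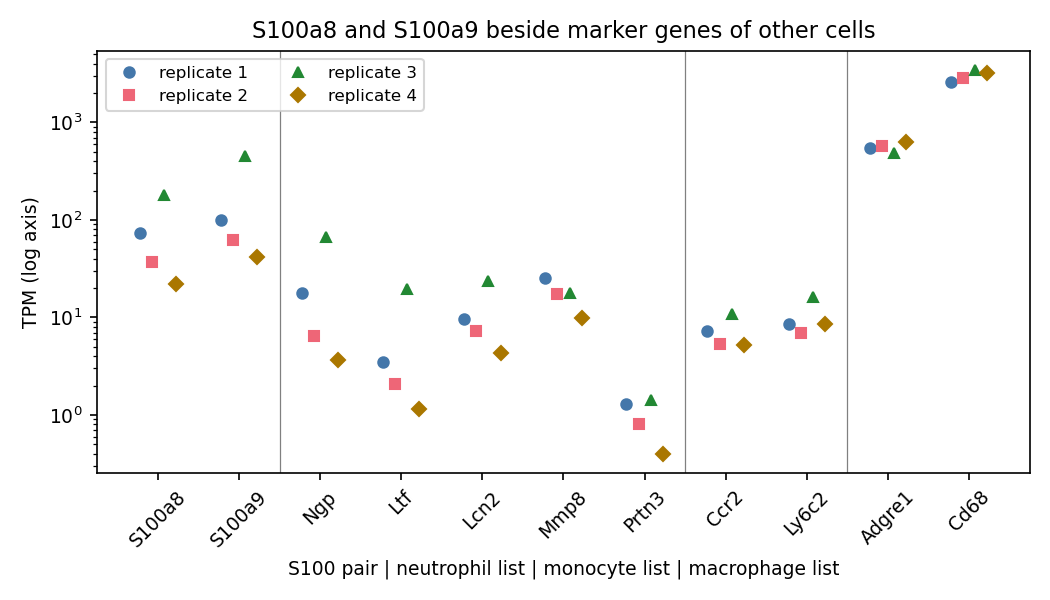
TPM (log axis) of S100a8 and S100a9 beside neutrophil-list genes (Ngp, Ltf, Lcn2, Mmp8, Prtn3), monocyte-list genes (Ccr2, Ly6c2) and macrophage-list genes (Adgre1, Cd68), with 1 symbol per library. Replicate 3 (triangles) is highest and replicate 4 (diamonds) lowest for S100a8, S100a9, Ngp, Ltf, Lcn2, Prtn3 and Ccr2. Adgre1 is lowest in replicate 3.

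The profiles closest to the calprotectin genes were sought among 10055 protein-coding genes whose mean count reached 50, by the root mean square difference of log2(CPM + 1) after each gene was centred on its own mean over the 4 libraries. For S100a9 the nearest were Ltf at 0.25, Ngp at 0.26 and Fabp4, a fatty acid carrier of macrophages and adipocytes, at 0.39 log2 units. For S100a8 they were Fabp4 at 0.20, the growth factor Hbegf at 0.28 and the platelet chemokine Ppbp at 0.31. Fabp4 itself measured 435, 253, 971 and 203 TPM. Only 1 gene lay within 0.25 of each. The distance is not scaled by a gene's spread, so genes with a wide spread tend to have few others within a fixed distance. Between the members, S100a8 and S100a9 were 0.33 apart.

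Receptors named for calprotectin or for S100 proteins in general were mostly present. The pattern receptor Tlr4 was even at 38.4 ± 2.20 TPM (SD, n = 4), and so was Bsg, an immunoglobulin-family receptor reported for S100a9, at 259 ± 10.8 TPM. Ly96, which encodes the Tlr4 co-receptor MD-2, was at 33.0, 47.2, 98.2 and 29.7 TPM, highest in replicate 3 and lowest in replicate 4 like the calprotectin genes. The scavenger receptor Cd36 fell into a high and a low pair of libraries: 965 and 889 TPM in replicates 1 and 3, and 88.6 and 164 TPM in replicates 2 and 4. Emb, related to Bsg, was low where Cd36 was high, at 34.5 and 67.6 TPM in replicates 1 and 3 and 137 and 120 TPM in replicates 2 and 4. Ager, which encodes the receptor RAGE, did not exceed 0.22 TPM. Of the 5 receptor genes with enough counts to test, 3 were called variable (Cd36, Emb and Ly96), where 33% of all genes tested were.

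S100a10 and S100a11 lie in a second stretch of the cluster, S100a11 (ENSMUSG00000027907.4) at chr3:93520488-93526287 and S100a10 (ENSMUSG00000041959.14) at chr3:93555080-93564643, both on the plus strand. S100a10 differs from its relatives in that its EF-hands no longer bind calcium, and a dimer of it joins a pair of annexin A2 chains into a tetramer at the membrane. S100a11 binds annexin A1. S100a10 measured 471, 295, 428 and 260 TPM in replicates 1 to 4, and S100a11 measured 370, 260, 355 and 292 TPM. Both were higher in replicates 1 and 3 than in replicates 2 and 4, with no overlap. Their profiles, 0.18 log2 units apart, were the closest of the 28 pairs of members, and the S100a10 to S100a11 TPM ratio was 1.27, 1.14, 1.21 and 0.89. S100a11 was the only member whose expected counts were not whole numbers (1679, 1310, 2146 and 1828 after rounding), as happens where reads are shared with another sequence. Its pseudogene S100a11-ps was listed at 0.

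Of the 4 annexin genes examined, Anxa1 and Anxa2 showed the same division of the libraries, Anxa6 showed the reverse, and Anxa11, at 58.6, 41.2, 51.7 and 53.2 TPM, showed neither. Anxa2, the partner of S100a10, measured 577, 283, 588 and 421 TPM (2.19-fold range by CPM), and Anxa1, the partner of S100a11, measured 988, 316, 669 and 379 TPM (3.10-fold range). Both were called variable, unlike their S100 partners. This division was picked out after the values had been seen, and it is common here: 24.3% of all genes tested had both of replicates 1 and 3 above both of replicates 2 and 4 by CPM, and 26.7% had the reverse. In all, 4 of the 8 S100 genes (S100a8, S100a9, S100a10 and S100a11) and 5 of 12 partner genes were higher in replicates 1 and 3, and S100a1 and 2 partner genes were higher in replicates 2 and 4. One of those 2 was Ahnak, a giant scaffold protein bound by S100a10 and annexin A2, at 121, 182, 148 and 208 TPM. The other was Anxa6, at 99.0, 195, 137 and 177 TPM. Within a library the S100a10 level was 0.82, 1.04, 0.73 and 0.62 times that of Anxa2, and the S100a11 level was 0.37, 0.82, 0.53 and 0.77 times that of Anxa1.

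S100a8 and S100a11 each held 3 of the 5 motifs searched, which were the 3 above, the AP-1 site and the E-box. In the 250 bases before S100a11 these were TGANTCA, the AP-1 site, at 38 and 136 bases before the start (6.75% of windows hold it), CACGTG, an E-box, at 223 bases (6.02% of windows) and GAGGAA at 153 bases. These are letter matches in a window, and binding was not measured. S100a10 had no window in the RefSeq table used here, and the windows of S100a1, S100a6 and S100a13 held none of the 5 motifs.

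S100a4 (ENSMUSG00000001020.8, chr3:90603771-90606045) and S100a6 (ENSMUSG00000001025.8, chr3:90612882-90624181) follow each other on the plus strand with the silent S100a5 between them. S100a4, known for binding non-muscle myosin IIA and for its link to cell motility, measured 233, 116, 120 and 241 TPM in replicates 1 to 4. Replicates 1 and 4 were alike and lay above replicates 2 and 3 without overlap. The share of all genes with this division is not given here, so it is only a description. The 2.04-fold range lay just past the threshold. The call was lost without replicate 2 (1.90-fold) and without replicate 4 (1.94-fold). S100a10, at 1.75-fold, was the nearest member below it. S100a6, or calcyclin, which binds the ubiquitin ligase adaptor Cacybp, measured 203, 64.2, 56.3 and 85.9 TPM, high in replicate 1 alone. Without replicate 1 its range was 1.54-fold and it was no longer called. S100a4 exceeded S100a6 in every library, by 1.15, 1.80, 2.14 and 2.80 times. As the other member with a TATA sequence near its start, S100a4 is shown with the 250 bases before its RefSeq start (GRCm38.p6, chr3:90603520-90603769, plus strand), TATAAA in capitals, which begins 31 bases before the start.
S100a4: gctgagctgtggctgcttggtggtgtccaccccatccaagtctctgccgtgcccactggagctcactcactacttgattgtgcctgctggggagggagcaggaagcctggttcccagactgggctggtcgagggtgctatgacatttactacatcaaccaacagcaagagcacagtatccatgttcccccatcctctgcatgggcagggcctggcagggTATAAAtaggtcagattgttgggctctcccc

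The partners of these members did not repeat their patterns. Myh9, the heavy chain of myosin IIA, was at 153, 109, 113 and 83.7 TPM and was lowest in replicate 4, where S100a4 was highest. Cacybp was at 51.0, 42.3, 51.6 and 33.8 TPM. Neither was called variable. The 3 genes with profiles nearest to S100a4 were Fam198b, Apbb2 and Cd72, a lectin-like receptor of B cells and macrophages, at 0.15, 0.15 and 0.16 log2 units, and 55 genes lay within 0.25. Those nearest to S100a6 were the bicarbonate transporter Slc4a7 at 0.04, the heat shock gene Hspa1b at 0.06 and the metal transporter Slc39a14 at 0.09, with 108 genes within 0.25. Hspa1b measured 19.9 TPM in replicate 1 and 5.31 to 8.75 TPM in the other libraries. Replicate 1 was also the library with the fewest counts and the highest share of ribosomal RNA, and by CPM 35.8% of all genes tested were highest in it. The part of these in the S100a6 value was not tested.

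S100a1 (ENSMUSG00000044080.9, chr3:90511034-90514392, minus strand) and S100a13 (ENSMUSG00000042312.9, chr3:90514435-90524581, plus strand) are divergent neighbours. Their GENCODE models are separated by 42 bases (GRCm38.p6, chr3:90514393-90514434, written along S100a13). These bases are shown here because the pair that shares them differed in level and in spread. All are in lower case, since none of the motifs lies in them. The RefSeq start of S100a1 lies 62 bases inside its GENCODE model, so they are only part of the stretch between the RefSeq starts.
S100a1 to S100a13: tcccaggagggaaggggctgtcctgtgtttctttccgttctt

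S100a1 is best known from heart and skeletal muscle, where it acts on the ryanodine receptor and the calcium pump SERCA2, and it was the highest member here by mean TPM. It measured 167, 588, 458 and 674 TPM in replicates 1 to 4. It was the top member in replicates 2, 3 and 4 and only the fifth in replicate 1, where S100a10 led. Without replicate 1 its range was 1.46-fold and it was no longer called. S100a13, which takes part in the export of Fgf1 and interleukin 1α by a route outside the classical secretory pathway, measured 41.7, 53.9, 59.8 and 58.4 TPM. Replicate 1 was the lowest library for both, but the S100a1 to S100a13 TPM ratio still ran from 4.01 in replicate 1 to 7.66, 10.9 and 11.5 in replicates 3, 2 and 4. The part of the ribosomal RNA share or the depth of replicate 1 in these values was not tested; 32.6% of all genes tested were lowest in it by CPM.

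Of the muscle partners of S100a1, the ryanodine receptor gene Ryr2 had 0 counts in every library, and Atp2a2, which encodes SERCA2, measured 108, 65.8, 62.6 and 67.5 TPM, highest where S100a1 was lowest. Among the cargo of the S100a13 route, Il1a measured 1268, 1441, 2540 and 999.8 TPM (2.51-fold range, called) and Fgf1 measured 3.17, 0.17, 2.38 and 0.16 TPM (called). Neither followed S100a13, whose range was 1.5-fold. The genes nearest to S100a1 in profile were Gas7, Rdm1 and Nipal3, at 0.02, 0.04 and 0.05 log2 units, and 94 genes lay within 0.25. Gas7, which takes part in actin and membrane remodelling, measured 41.5, 140, 103 and 147 TPM. With 4 libraries such closeness is shared by many genes and is only a description.

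**Figure D3:**
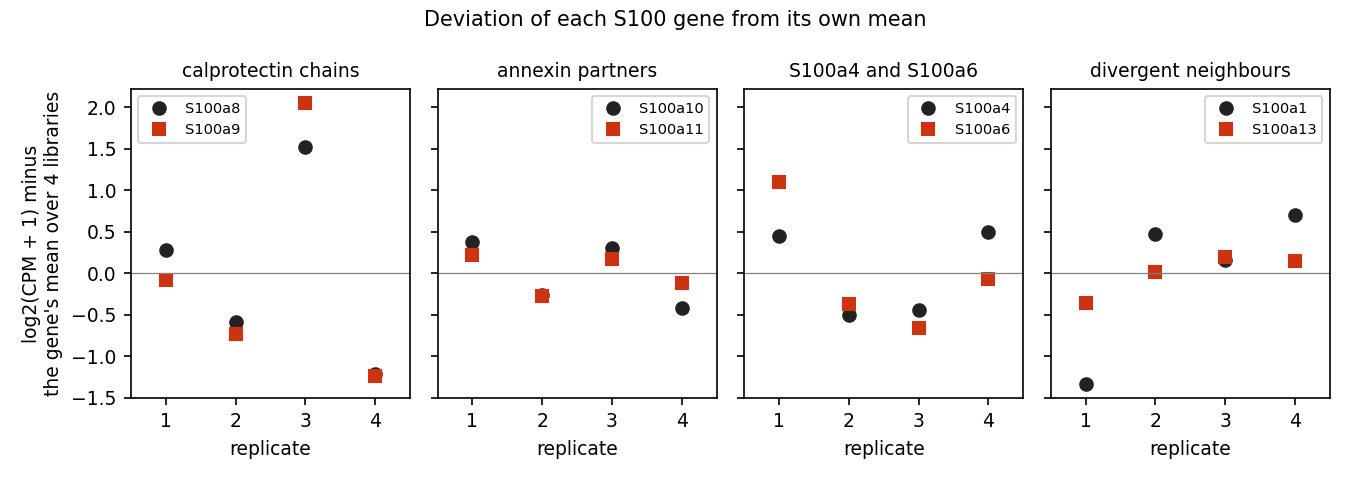
Deviation of each S100 gene from its own mean over the 4 libraries (log2(CPM + 1)), by replicate, with the genes paired by partner or position. S100a8 and S100a9 reach 1.52 and 2.05 in replicate 3, S100a10 and S100a11 stay within 0.42 of their means, S100a6 reaches 1.11 in replicate 1, and S100a1 falls to -1.33 in replicate 1.

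Outside these 8 genes the family was silent. The 8 were selected on their TPM in these same libraries, so the split into expressed and silent genes is only a description. The annotation holds 17 protein-coding S100 genes, and the 9 that are not described above stayed below 1 TPM in every library. Of these, 6 (S100a2, S100a5, S100a7a, S100a14, S100g and S100z) had 0 counts in all libraries, which allows up to 0.0761 CPM in the deepest library and 0.111 CPM in the shallowest (3 counts, counting error only). S100b, the astrocyte marker, had at most 3 counts in a library, S100a16 at most 2 and S100a3 at most 1. The 7 fused S100 genes of skin, such as filaggrin (Flg), were also below 1 TPM throughout, 6 of them at 0 counts. Active and silent genes were close neighbours on chromosome 3. S100a5, at 0 counts, starts 2477 bases after S100a4 and ends 1101 bases before S100a6, and S100a7a, also at 0, lies 10308 bases before S100a8. S100a14, at 0, lies 2274 bases after S100a13. The first stretch spans 185 kb from S100a1 to S100a9, the second spans 44.2 kb, and the 2825 kb between them hold 102 other genes.

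**Figure D4:**
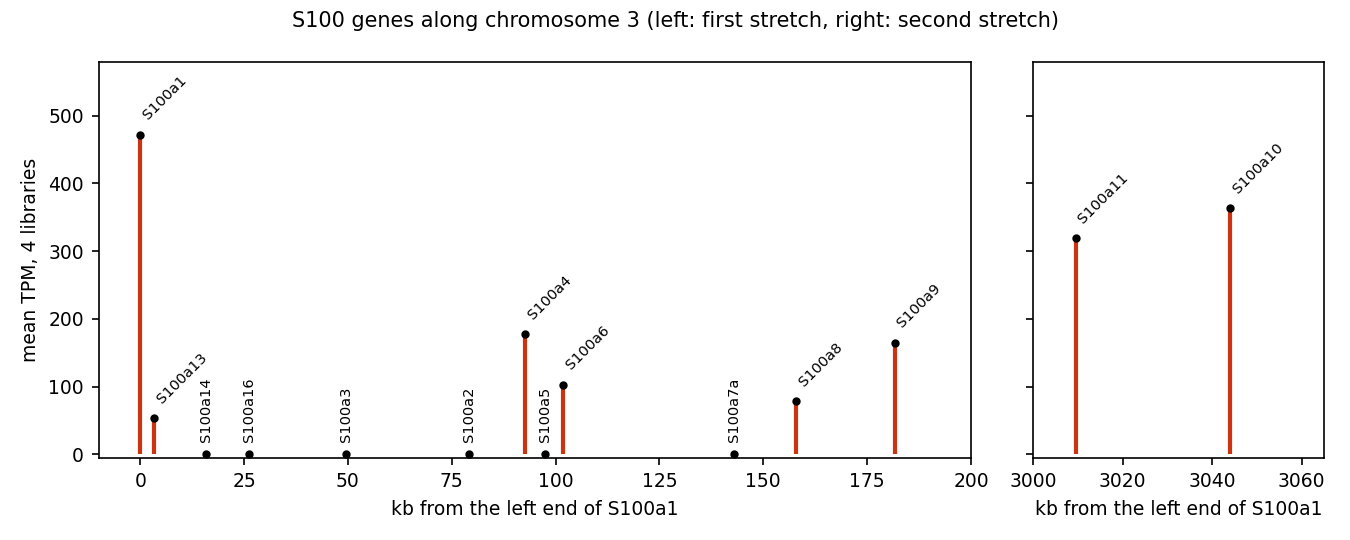
Mean TPM over the 4 libraries of the 14 protein-coding S100 genes on chromosome 3, at each gene's distance in kb from the left end of S100a1. Red stems are the 8 genes selected here, and the 6 genes with no visible stem, S100a14, S100a16, S100a3, S100a2, S100a5 and S100a7a, lie at or near 0 between them.

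Of 18 genes for calcium sensors with EF-hands outside the family, 17 were at 1 TPM or more in every library and 2 were called variable (Ncs1 and Rcn1), with a median range of 1.48-fold, beside 1.68-fold and 33% called for all genes tested. The members were selected on their spread, so their own median range is not set against this list. Among the highest were the actin-bundling Lcp1 at 752 ± 193 TPM (SD, n = 4), the calmodulin gene Calm2 at 569 ± 73.1 TPM, Efhd2 at 414 ± 79.6 TPM and the calpain subunit Capns1 at 317 ± 27.7 TPM. By mean TPM, S100a1 stood between Efhd2 and Calm2. Of the 12 partner genes, 10 were at 1 TPM or more in every library and 5 of the 11 tested were called (Anxa1, Anxa2, Anxa6, Il1a and Fgf1), against the same 33%. Iqgap1, a scaffold that binds S100 proteins, was among the even ones at 281 ± 25.9 TPM.

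For most members 1 transcript carried nearly all of the gene's level. The main transcript held a mean of 98.0% of the gene's TPM for S100a1, 99.2% for S100a10, 99.2% for S100a8 and 99.9% for S100a4, and S100a11 and S100a13 have 1 annotated transcript. S100a9 was divided in a similar proportion in every library. Its minor coding transcript S100a9-202 held 17.5%, 17.1%, 15.6% and 20.9% of the gene's TPM in replicates 1 to 4, or 17.8 ± 2.23% (SD, n = 4), although the gene's level ranged 11.0-fold by CPM. The second deposited quantification gave 18.3 ± 2.54% for it. For S100a6 the quantifications did not agree. The shorter coding transcript S100a6-203 held 23.6%, 9.16%, 26.4% and 26.9% by the first and 34.1%, 20.6%, 10.6% and 4.00% by the second, so no transcript proportion is given for S100a6.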

How the data were processed

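Each library had deposited gene and transcript tables on mm10 with GENCODE M21, as the deposited text lists say; not given in the sources used here: aligner, version and strand setting. Expected counts (estimates that need not be whole) and TPM stand in these tables as the authors computed them, per the file headers. The authors also deposited bounds of a TPM credibility interval, a signal whose level is not stated, and each transcript's percent of its gene's TPM. A second deposited transcript table, with estimated counts and TPM, was summed to genes as the second quantification.

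Of 81881 rows, 55536 were genes and the rest (0.103% to 0.118% of counts) were left out. Counts were rounded and scaled with TMM factors (edgeR 4.0.16 with limma 3.58.1, R 4.3.3; DESeq2 1.42.0 factors as an alternative). The chi-square test with 3 degrees of freedom ran on genes whose mean count was 10 or more, in Python 3.11.15 with SciPy 1.17.1, NumPy 2.4.6 and pandas 2.3.3, after a check on simulated data, and figures used matplotlib 3.10.9. With 1 group, no contrast between conditions could be fitted. Profiles used log2(CPM + 1).

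The members, lists and tests were chosen with earlier results of these data known. Named are all 8 members, other S100 genes at 1 TPM or more, the 5 highest genes of the partner, receptor, EF-hand, neutrophil, monocyte and macrophage lists, partners or receptors of a member, and the 3 genes nearest in profile to each variable member, except 1 EF-hand gene that is not reported here; Ly6g, Mcpt8, Ncs1, Rcn1, Flg, the S100 genes below 1 TPM and the genes sharing a division of the libraries were named after their values were seen. Promoter sequences are from RefSeq (GRCm38.p6, the same assembly as mm10); 7 of the 8 members had one. Motifs were searched on both strands. Alternatives were DESeq2 factors, library totals, no count filter, Poisson deviance, a 1.5-fold minimum range, the second quantification, posterior mean TPM, other pseudocounts and TPM minimums, and leaving out each library.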

Additional observations from a re-analysis of the deposited data

Results flagged for a closer look

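Of 46 values tested for 1 library standing far from the other 3 (Dixon's test on TPM), 3 were marked, where chance marks about 1 in 20. S100a9 stood high in replicate 3, at 456.65 TPM. Ltf, a neutrophil granule gene, also stood high in replicate 3, at 19.42 TPM. Plac8, of the monocyte list, stood low in replicate 1, at 4.09 TPM. S100a9 was selected with its spread in these libraries in view, and Ltf is the gene closest to it in profile. These marks are therefore a description and support nothing by themselves.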

How the results depend on the processing

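The number of S100 genes called variable was 5 with DESeq2 factors, library totals, no count filter, Poisson deviance and the second quantification, and 6 at a 1.5-fold minimum range, where 58.2% of all genes were called. Leaving out 1 library gave 3 to 5, with 3 without replicate 1 (16.1% of all genes called). S100a1 (1.46-fold) and S100a6 (1.54-fold) lost their calls without replicate 1, and S100a4 lost its call without replicate 2 (1.90-fold) or replicate 4 (1.94-fold). S100a10, at 1.75-fold, was called only at the 1.5-fold minimum. The S100a9 to S100a8 log2 ratio stayed between 0.71 and 1.00 over 8 alternatives. Of 28 pairs of members, 26 to 28 kept their order by mean TPM. The second quantification put all genes lower by a median log2 of -0.36 and the 8 members by -0.46 to -0.57, which moved S100a11 to 218 TPM and S100a13 to 38.9 TPM. The neutrophil list in replicate 3 was 3.82 times the median of the other libraries, and 3.34 to 4.67 times under 3 alternatives chosen after seeing the data. No paired analysis was possible because there was 1 group. With 124 counts at the lowest member value (S100a8 in replicate 4), depth limited the silent S100 genes, not the 8 described.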
